A study of Homo sapiens with 9 samples.

Results

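Cells that received either form of miR-376a* were compared, as the mean of both forms, with cells transfected with a control miRNA, in U87, an established human glioma line. The comparison uses 6 arrays (3 of miR-376a*A and 3 of miR-376a*G) against 3 control arrays, which are all 9 arrays of the series. Every group received a miRNA duplex at 50 nM by lipid transfection, and RNA was taken after 24 h. The labels call the 3 arrays of a group biological replicates, all of 1 cell line, so p-values measure the spread among these samples. All 9 arrays come from transfected cells, so a change made by both forms and an opposite change made by the control miRNA cannot be told apart. In published work miR-376a*A is unedited, and miR-376a*G has the base to which RNA editing changes it. The question here is which genes changed whichever of these bases the miRNA carried.

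A miRNA is a short RNA that guides an Argonaute protein to messenger RNAs, mostly through its seed, the stretch of bases near its 5′ end that pairs with the target. Paired messengers are destabilised or translated less. Adenosine deaminases turn adenosine in double-stranded RNA into inosine, which pairs like guanosine, and published work places the edited adenosine of miR-376a* inside the seed. Both forms therefore differ in the seed and share the other bases.

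The star name is the older one for the 5′ arm of the hairpin of MIR376A1, hsa-miR-376a-5p in current nomenclature. The 5′ arm is shown because it is the sequence the transfected forms are named for, and the 3′ arm because it is its natural partner strand. Capitals mark the seed, bases 2 to 8. The sequences are those of RefSeq on GRCh38.p14, plus strand, at chr14:101040788-101040809 and chr14:101040825-101040845. They are the genomic, unedited letters, and those of the transfected duplexes were not used here.
hsa-miR-376a-5p: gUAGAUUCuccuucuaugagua
hsa-miR-376a-3p: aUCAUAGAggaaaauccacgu

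The arrays shared a scale, with trimmed mean signals of 100.009 to 100.011 and median signals of 18.0 to 20.4. Arrays of a group correlated with r of 0.9887 to 0.9948 across probe sets, which are not independent replicates. Arrays are written C1 to C3 for control, A1 to A3 for miR-376a*A and G1 to G3 for miR-376a*G, by replicate number. Deviations from group means had an SD (log2) of 0.166 on C1, 0.145 on C2 and 0.114 on C3, and of 0.102 to 0.114 on the other 6. Of 13 glioma and glial markers, VIM and CD44 were brightest (2010 to 2610 and 1820 to 2200). The astrocyte markers GFAP and S100B were lowest, at 0.734 to 2.43 and 0.521 to 1.67. Other glial markers lay between, among them SLC1A3 (128 to 260), SOX9 (67.8 to 112), FABP7 (31.9 to 49.9), ALDH1L1 (26.6 to 41.8) and AQP4 (5.57 to 13.4). The summed signal of 16 markers of blood, endothelial, epithelial and neuronal cells was 646 to 714 in the control, 1153 to 1196 with miR-376a*A and 679 to 757 with miR-376a*G, and SNAP25 alone accounted for 293 to 757. CD14 was below 1 on every array (0.473 to 0.986), whereas PECAM1, KDR and HBB gave 41.3 to 87.3, 28.6 to 66.2 and 38.2 to 53.8. The part of these markers in any result was not tested.

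Across all 54613 probe sets, 7157 differed between both forms and control at an adjusted p under 0.05 in limma's test, 3178 of them higher and 3979 lower (13.1%, 5.82% and 7.29%). At least 2-fold changes were far fewer, with 98 higher and 79 lower (0.324% together). A pooled difference can come from both forms or mainly from 1 of them, so each called probe set was sorted by the size of the difference between the forms beside the pooled difference. A change was termed even where the 95% interval of miR-376a*A minus miR-376a*G lay within 0.5 times the pooled difference in either direction. It was termed uneven where it was not even and the forms differed at an adjusted p under 0.05, and undetermined otherwise. By this rule 576 probe sets were even (1.05% of all tested), 2052 uneven and 4529 undetermined. The number of even changes ranged from 397 to 946 when 1 array was left out, with the highest value without C1. With both forms treated as 1 group of 6 arrays, so that their difference counts as spread, 3153 probe sets passed.

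Of probe sets at least 2-fold changed, 174 of 177 had both forms on the same side of control, and of such genes 98 of 100. Over all called probe sets and all called genes the shares were 95.4% and 94.4%. Selection by a large mean of both forms makes opposite sides unlikely, so these shares do not by themselves show shared changes. The large changes differed in how alike the forms were in size. Of 98 probe sets at least 2-fold higher, 76 were even and 18 uneven. Of 79 at least 2-fold lower, 22 were even and 49 uneven. With each gene represented by its brightest probe set, 48 of 60 such rises and 13 of 40 such falls were even, and 9 and 26 were uneven. The genes numbered 100 in all, 0.506% of 19775. No test was made of this contrast, since genes are not independent replicates. The forms themselves differed in 4819 probe sets (8.82%), of which 2065 were also called in the pooled comparison. That number was 3117, 3001, 2859 and 3022 without A1, A2, G2 or G3. Of the other 2754, the forms lay on opposite sides of the control in 2399. This follows largely from the selection, since forms that differ around a mean near the control tend to lie on either side. It does not show that either form differed from control.

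**Figure D1:**
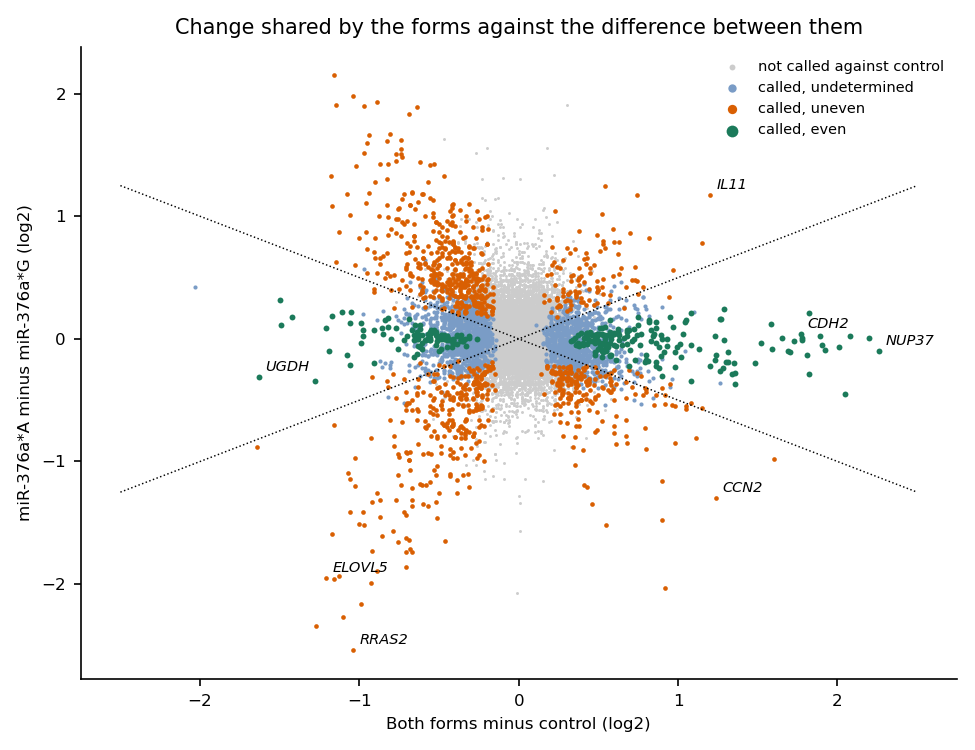
Each point is a gene (its brightest probe set), with the difference of both forms from control on the x axis and miR-376a*A minus miR-376a*G on the y axis (both log2). Colours give the class, and dotted lines mark a difference between forms of 0.5 times the pooled one. The largest rises, such as NUP37 (2.26) and CDH2 (1.77), lie near 0 on the y axis, as do falls such as UGDH (-1.63) and PLS1 (-1.50), whereas RRAS2, with a pooled difference of -1.04, lies at -2.54 on the y axis.

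Calls followed brightness. The share of probe sets called was 0.897% in the dimmest of 5 equal bins of signal, 22.8% between 33.4 and 144.0 and 33.0% in the brightest bin. From the dimmest bin to the brightest, the median SE of the pooled log2 difference was 0.0481, 0.102, 0.106, 0.0889 and 0.0678. Signals in the dimmest bin were 0.0488 to 3.58, below the 16 added before taking log2. That addition shrinks differences and SE alike, so the small SE there does not mean precise measurement. Of all 19775 genes 7.32% were higher and 9.21% lower (16.5% together). Of 16517 protein-coding genes 1339 rose and 1771 fell (18.8%), against 85 and 40 of 2658 long non-coding genes (4.7%). Of the long non-coding genes 4 were even.

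NUP37, a subunit of the nuclear pore scaffold, had the largest even rise. Its signal was 167.1, 199.8 and 188.0 on the control arrays, 876.1, 921.3 and 934.1 with miR-376a*A, and 963.2, 988.1 and 980.8 with miR-376a*G. The 6 arrays lay well above the 3 and close to each other, a 4.78-fold rise with a log2 difference of 2.26 ± 0.0553 (SE, adjusted p = 5.87e-08). The forms differed by -0.10 ± 0.0638 (SE). A dim second probe set of NUP37 rose by only 0.38.

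ATL3, an atlastin that fuses tubules of the endoplasmic reticulum, stood at 278.2, 212.9 and 216.0 in the control and at 1044.0 to 1226.6 on the 6 arrays, with 1226.6, 1105.8 and 1070.6 for miR-376a*A. It rose 4.58-fold (2.20 ± 0.0881, SE, adjusted p = 1.66e-06), and the difference between forms was 0.01 ± 0.102 (SE). This rise rests on 1 probe set, as the other 2 gave 0.19 and 0.22 and did not pass. SEC22C, a protein of traffic between the endoplasmic reticulum and the Golgi, had control signals of 194.7, 190.9 and 183.0 and 675.8 to 711.5 on the 6 arrays. It was among the most precise changes, 3.44-fold higher with 1.78 ± 0.0403 (SE). All 5 other probe sets of SEC22C shared the sign and 3 passed, at smaller sizes of 0.21 to 0.74.

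GALNT1, which starts mucin-type O-glycosylation, rose on all 5 of its probe sets. The brightest had control signals of 149.7, 138.9 and 142.5, then 648.4, 678.9 and 669.9 with miR-376a*A and 666.9, 660.0 and 640.2 with miR-376a*G. The spread within each group was a small part of the gap, and the 4.24-fold rise (2.08 ± 0.0416, SE, adjusted p = 4.41e-08) differed between forms by 0.02 ± 0.048 (SE). GLO1, the glyoxalase that clears methylglyoxal, a toxic by-product of glycolysis, was measured by 1 probe set. Its control arrays gave 282.1, 291.1 and 304.4 and the 6 others 1158.9 to 1296.1, a 4.02-fold rise (2.01 ± 0.0437, SE).

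WDFY1, which binds the lipid PI3P on endosomes, was 108.2, 79.5 and 91.9 in the control and 353.8 to 424.5 on the 6 arrays (3.8-fold higher). MTMR6, a phosphatase that removes the phosphate making PI3P, was 66.1, 41.9 and 46.4 in the control, 251.3, 197.9 and 213.5 with miR-376a*A and 283.9, 312.2 and 324.2 with miR-376a*G. Among these 10 rises MTMR6 had the largest log2 difference between forms, at 3.54-fold with A and 4.83-fold with G (difference -0.45 ± 0.13, SE, adjusted p = 0.066). A dim second probe set of MTMR6 rose by only 0.32 and was uneven. LAMTOR3, a subunit of the Ragulator complex that anchors nutrient signalling to lysosomes, was 118.5, 135.8 and 154.5 in the control and 537.7 to 576.0 with both forms. Its second probe set rose by 1.67, close to the 1.90 ± 0.0678 (SE) of the first.

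MRPS14, a protein of the small subunit of the mitochondrial ribosome, showed the narrowest spread with miR-376a*. Its 6 arrays lay between 498.0 and 513.4, while the control arrays gave 100.8, 152.5 and 126.2 (3.7-fold higher, adjusted p = 4.81e-06). A dimmer second probe set of MRPS14 rose by 0.72 and was undetermined. NR1D2, a nuclear receptor that represses clock genes, rose 3.44-fold with the largest error of the even rises (1.78 ± 0.143, SE, adjusted p = 6.36e-05). Its control arrays were the uneven ones, at 78.2, 41.1 and 66.9, against 214.1 to 276.1 on the 6 arrays. A second NR1D2 probe set of similar brightness rose by 1.32.

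The even falls were smaller. UGDH, the enzyme that makes UDP-glucuronate for hyaluronan and other glycosaminoglycans, fell most by the smaller of both forms. Its signal was 832.6, 621.1 and 725.0 in the control, 192.0, 190.7 and 212.5 with miR-376a*A and 236.3, 253.3 and 262.0 with miR-376a*G. The 6 arrays were all below the 3, a 3.09-fold fall (-1.63 ± 0.0838, SE, adjusted p = 5.81e-06), and miR-376a*A lay somewhat lower (-0.31 ± 0.0968, SE, adjusted p = 0.0819). PLEKHA1, an adaptor that binds a phosphoinositide at the plasma membrane, went from 580.4, 469.6 and 487.1 to 158.6 to 201.2. It fell 2.67-fold, and its second probe set fell by 1.30 on the log2 scale.

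PLS1, an actin-bundling plastin, was at 193.5, 116.2 and 139.4 in the control and at 29.7 to 55.3 on the 6 arrays (2.82-fold lower, -1.50 ± 0.141, SE, adjusted p = 0.000165). CLPTM1, a transmembrane protein, was at 188.3, 292.3 and 300.2 in the control and at 75.1 to 88.3 on the 6 arrays (2.8-fold lower). In both genes the control spread was the larger one, and C1 stood apart, higher for PLS1 and lower for CLPTM1. ARHGAP19 fell 2.42-fold from 96.7, 101.7 and 107.5 to 24.9 to 44.2, and the forms differed by -0.34 ± 0.0949 (SE, adjusted p = 0.0594).

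DCP2, the enzyme that removes the cap of messenger RNAs, was 470.7, 378.3 and 434.5 in the control and 160.1 to 195.5 on the 6 arrays (2.28-fold lower, adjusted p = 1.24e-05). Another, dimmer DCP2 probe set passed in the opposite direction (0.28 ± 0.0698, SE, adjusted p = 0.0292), so the gene's direction depends on the probe set. SF3B4, a splicing factor of the U2 particle, was 249.3, 241.3 and 216.0 in the control and 92.6 to 114.9 with both forms (2.12-fold lower). ATAD1, an ATPase that removes misplaced proteins from the outer mitochondrial membrane, fell 2.32-fold from 557.7, 401.8 and 425.2 to 175.5 to 204.6.

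TRAPPC1, a subunit of a complex that tethers vesicles at the Golgi, fell 2.16-fold, from 152.5, 199.1 and 187.5 to 66.0 to 88.5. COL6A2, a chain of collagen VI, was 160.8, 185.9 and 148.2 in the control and 53.7 to 72.4 on the 6 arrays (2.25-fold lower). The COL6A2 fall rests on 1 probe set, as the other gave 0.02 ± 0.121 (SE). STX17-DT, a long non-coding transcript named here after its values were seen, had the largest fall of any gene (-2.03 ± 0.289, SE, adjusted p = 0.00168). Its signal was 471.4, 389.4 and 240.4 in the control and 48.8 to 152.9 on the 6 arrays, and with this spread it was undetermined, at -1.82 with miR-376a*A and -2.24 with miR-376a*G.

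**Figure D2:**
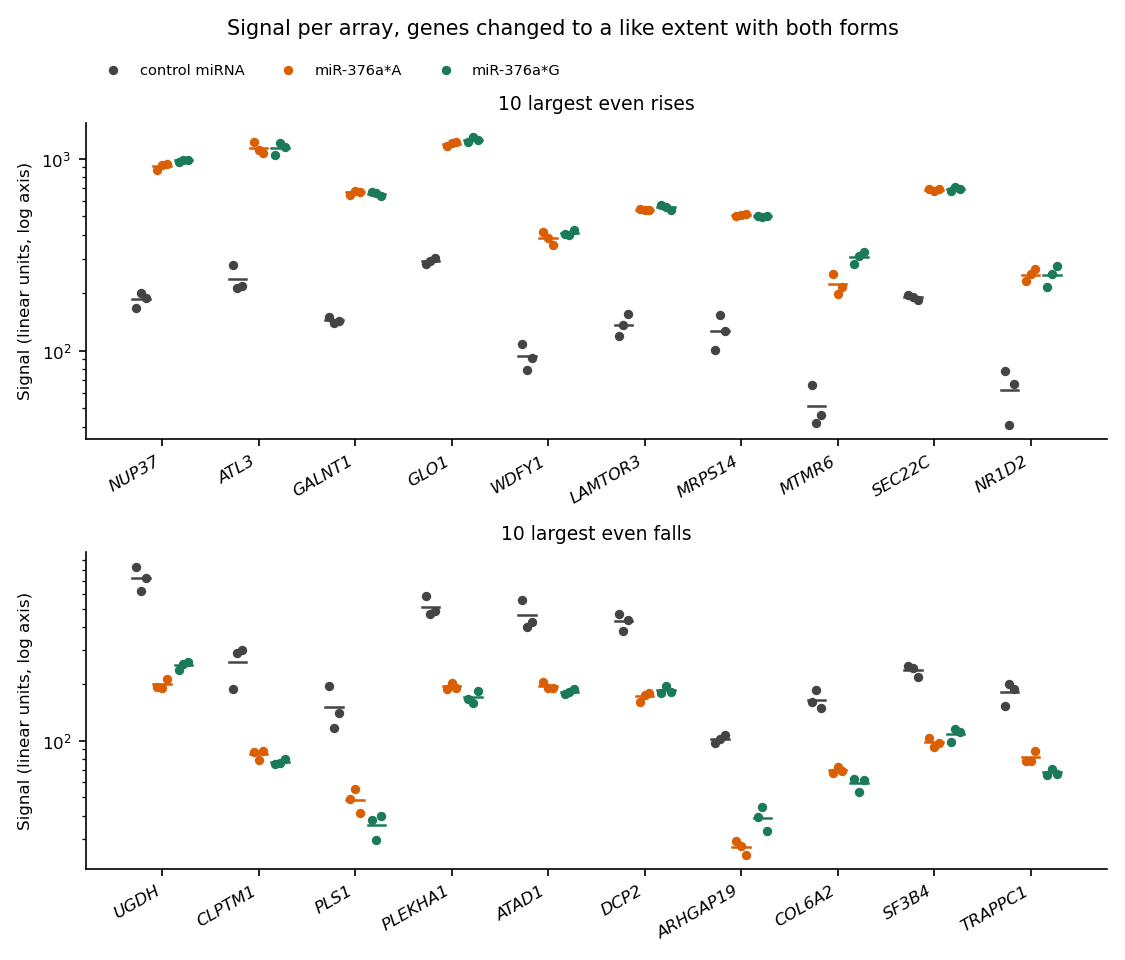
Signal of each array (points) and group mean (bars) on a log axis for the 10 largest even rises (top) and falls (bottom), for control miRNA (grey), miR-376a*A (orange) and miR-376a*G (green). The 20 genes were chosen to have no overlap between the 6 miR-376a* arrays and the 3 control arrays, and the plot shows the size of the gap, for example 876.1 to 988.1 against 167.1 to 199.8 for NUP37.

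All 20 genes kept their call under every alternative of scaling, filter, offset, variance model, design, probe sets per gene, block and left-out array. They kept the even class under the same alternatives that fit each form by itself, except that 17 of 20 were even with the mean of a gene's probe sets, 19 without A3 or G1, and 18 without G3. In all, 180 genes were even and higher and 108 even and lower (1.46% of 19775 genes together). All 180 of the first and 105 of the second had no overlap between the 6 arrays and the 3 and passed the brightness cut used to choose the named genes. The remaining even falls may overlap or may only be dim, since these counts do not separate the reasons. Without that cut, 15.2% of all genes had no overlap. Even genes are by definition called, with forms that differ little beside the pooled difference. Selection by this rule makes overlap unlikely, so the contrast with all genes is no separate evidence for shared changes.

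Further even rises of at least 2-fold, named after their values were seen, are examples from the 48 genes and stand for no group. The anti-adhesive sialomucin gene PODXL and the calcium channel subunit gene CACNA2D1 each rose 3.54-fold, and the caveolin gene CAV2 3.51-fold. The phosphatase subunit gene PPP1CC (3.13-fold, 1691.6 to 1833.6 on the 6 arrays), the growth factor gene PTN (2.87-fold) and the replication licensing inhibitor gene GMNN (2.54-fold) also rose. NDN, an imprinted growth-suppressor gene, rose 3.24-fold. Each of PODXL, NDN, PPP1CC and GMNN had 1 probe set. The other, dim probe set of CACNA2D1 gave 0.20 and did not pass. Among even falls the opsin gene OPN3 and the dynamin gene DNM1 fell 2.09-fold and 2.07-fold, and the lysosomal protease gene CTSD fell 1.97-fold. The other, dim probe set of DNM1 gave -0.10 and did not pass. EDC3, a protein that enhances decapping, fell 1.71-fold on its brightest probe set, while its other probe set gave -0.27 and did not pass.

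Genes called and uneven, with both forms on the same side of control, show changes shared in direction but not in size. TMEM106B, a lysosomal membrane protein, was 133.8, 113.1 and 115.1 in the control, 296.8, 269.2 and 270.5 with miR-376a*A and 553.9, 566.5 and 574.4 with miR-376a*G. It rose 3.03-fold on average, 2.16-fold with A and 4.26-fold with G, and the forms differed by -0.98 ± 0.068 (SE, adjusted p = 2.56e-05). CCN2, a secreted matricellular protein, was 98.2 to 107.4 in the control, 158.6 to 170.2 with A and 403.3 to 446.8 with G. The rise was 1.5-fold with A and 3.71-fold with G. KLHL8, an adaptor of a cullin ubiquitin ligase, rose 1.82-fold and 2.69-fold.

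Other uneven rises were larger with the A form. IL11, a cytokine of the IL6 family, was 48.1 to 62.0 in the control, 214.1 to 227.7 with A and 83.5 to 98.5 with G (3.45-fold and 1.53-fold). CEMIP, which degrades hyaluronan, was 228.5 to 266.4, 728.8 to 756.4 and 406.8 to 469.3 in the same order (2.89-fold and 1.69-fold). Groups did not overlap in either gene.

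The uneven falls also split by form. TWSG1, a secreted BMP-binding protein, had control signals of 700.6, 577.7 and 647.8, and fell 4.24-fold with A and 2.3-fold with G. STX3, a SNARE of membrane fusion, fell 2.85-fold and 1.75-fold. ELOVL5, a fatty acid elongase, fell 4.57-fold with A (231.1 to 258.3) but only 1.18-fold with G (944.5 to 997.2, against 1095.4 to 1195.1 in the control). Its 3 other, dim probe sets gave -0.32 to 0.03 and none passed. GAP43, a growth cone protein, and AP3M1, a subunit of an endosomal coat adaptor, fell more with G, 3.6-fold and 3.27-fold, than with A, 1.43-fold and 1.54-fold. Both other probe sets of GAP43 shared its sign and neither passed.

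**Figure D3:**
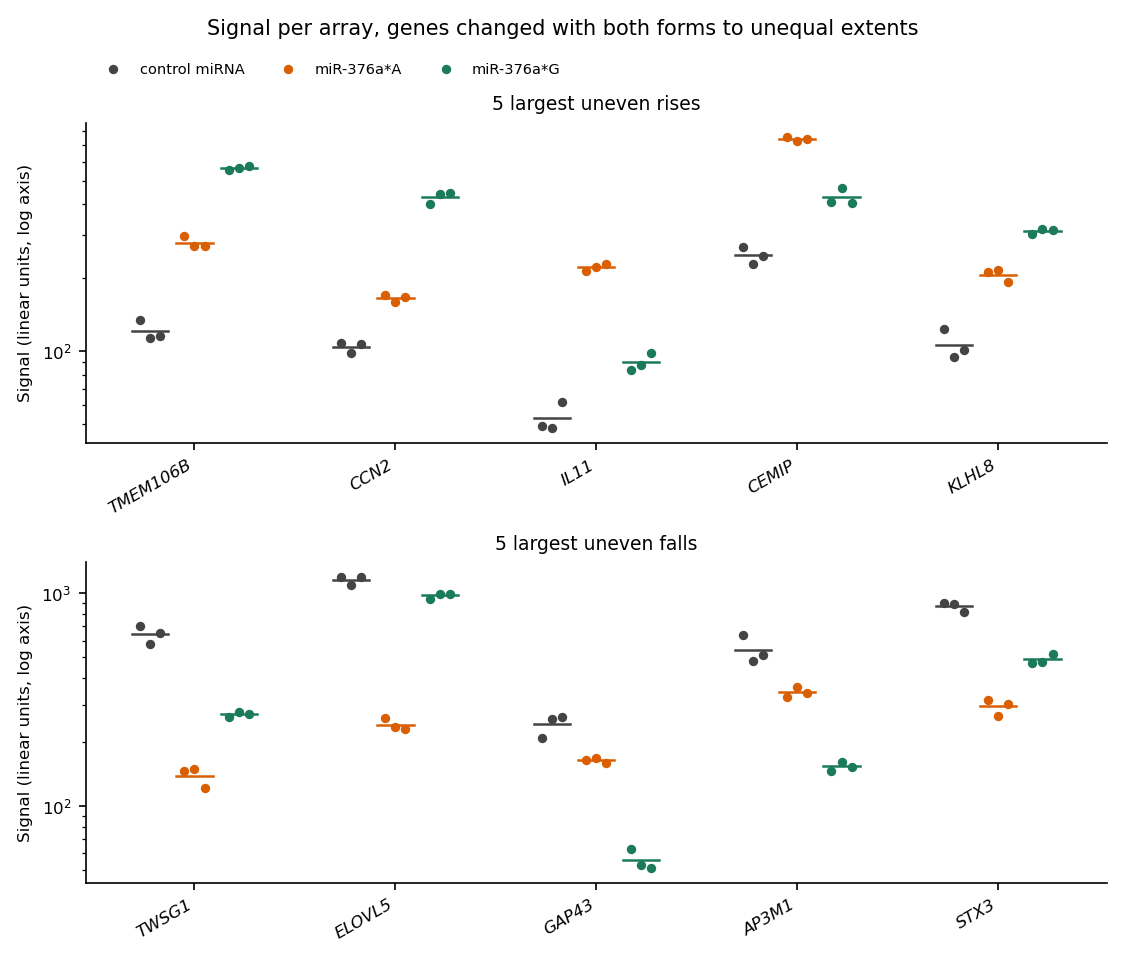
Signal of each array (points) and group mean (bars) on a log axis for the 5 largest uneven rises (top) and falls (bottom), for control miRNA (grey), miR-376a*A (orange) and miR-376a*G (green). The genes were chosen with both forms on the same side of control. They were also chosen to have no overlap between the 6 miR-376a* arrays and the 3 control arrays. The plot shows the distances, as in CCN2 with 158.6 to 170.2 for miR-376a*A and 403.3 to 446.8 for miR-376a*G.

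A pooled call does not by itself show a shared change. RRAS2, a RAS-family GTPase, was called lower in the pooled comparison (-1.04 ± 0.0494, SE, adjusted p = 3.76e-06) although its signal was 101.2 ± 1.3 (SD, n = 3) with A and 666.4 ± 33.1 (SD, n = 3) with G, against 566.8 ± 31.3 (SD, n = 3) in the control. VMA21, an assembly factor of the proton pump, was 254.2 ± 5.2 with A and 1038.4 ± 54.6 with G, against 1179.0 ± 107.0 in the control (SD, n = 3 each). RTN4, a reticulon of the endoplasmic reticulum, was called at -0.33, with -0.66 for A and 0.00 for G. With both forms treated as 1 group none of these 3 passed, with adjusted p of 0.466, 0.266 and 0.383. In the other alternatives all 3 remained called. That design also ended the calls of CCN2, IL11, ELOVL5, GAP43, AP3M1, TNFRSF10B, IFI44L, ITGB3, SLC7A11, ASNS, AGO1, NUP50, CTNNA1, CSPG4, CHI3L1, SNAP25, PECAM1 and SYT1, with adjusted p of 0.0534 to 0.461.

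The gene lists were read against the genes at or above the 40th percentile of brightness, of which 10.1% were higher and 12.9% lower (23.0% together), with a median of 0.01 (log2) over all genes. Most list genes are that bright, so this background is closer than all genes, though only 15 of 26 in the cadherin list are. The share called rises further with brightness, to 33.0% of probe sets in the brightest of 5 bins. Lists were not matched to the background for brightness. Over all lists 239 calls were made, or 108 with both forms as 1 group, and no list was tested as a set. Lists were chosen with earlier results of these data known. Several hold genes described above for their large changes, such as NUP37, ATL3, GALNT1 and GLO1. The counts include these genes, so a count above the background is no separate support for a change of the list. In the list of NF-kB and inflammatory cytokine genes, 11 of 22 measured rose and 1 (NFKB1) fell, with a median of 0.20. IL6 rose 2.48-fold (289.1 to 408.2 on the 6 arrays, 106.2 to 145.4 in the control) and CSF3, which drives neutrophil production, 2.44-fold (285.6 to 364.0 against 106.6 to 134.6). Both were even. The list median was 0.01 with A and 0.52 with G, and 8 of the 12 calls were uneven. With both forms as 1 group, 4 rose and 0 fell.

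Of 35 genes of G2/M and mitosis, 15 rose and 1 (ECT2) fell, with a median of 0.15. The list median was -0.00 with A and 0.31 with G. CCNA2, the cyclin of S phase and mitosis, was even, at 452.3, 408.0 and 431.9 in the control and 933.0 to 1124.0 with both forms (2.35-fold higher), and its second probe set rose by 1.75. TOP2A, the topoisomerase that untangles chromosomes, rose 1.49-fold evenly, and the kinase gene NEK2 rose 1.81-fold. The number of falls was 0 without A3 or C3 and 2 without C1. With both forms as 1 group, 7 rose. Among 38 G1/S and DNA replication genes 10 rose and 4 fell, or 6 rose without A3. The falls numbered 2 without A1 or A3 or G1 or G2. CDK6, a kinase of the G1 phase, rose 2.57-fold (221.8 to 296.7 against 85.6 to 107.3) and was even, with all 6 other probe sets of the same sign. RFC5, a subunit of the clamp loader, and ORC6, of the origin recognition complex, rose 1.48-fold and 1.44-fold. In this list 6 rose and 0 fell with both forms as 1 group.

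Of 45 mitochondrial ribosomal protein genes 15 rose and 0 fell, with a median of 0.24 (0.15 with A and 0.33 with G). MRPS14 stood far above the rest, and MRPL1 and MRPS35 rose 1.48-fold and 1.28-fold. The count was 6 with both forms as 1 group. It also depended on single arrays, at 9 without A2 or G3, 8 without G1, and 7 without A3 or G2. At an unadjusted p under 0.05 in limma's test 29 were higher and 0 lower, and 1 fell without C1. Of 28 cytosolic ribosomal protein genes 0 passed in limma's test, in a range of 0.02 to 0.21, and 1 was higher at an unadjusted p under 0.05. Without C2, 1 passed. The difference between these lists was not tested.

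Phosphoinositide phosphatases and PI3P effectors moved in both directions. Of 33 measured, 4 rose and 10 fell, with the lowest median of any list (-0.22). WDFY1 and MTMR6 are described above, and INPP5A, a phosphatase that ends inositol trisphosphate signals, rose 1.53-fold. VAC14, the scaffold of the complex that makes PI(3,5)P2, fell 1.98-fold and evenly (77.2 to 91.0 against 157.1 to 215.7), although its 2 dimmer probe sets gave -0.02 and 0.07. FIG4, a partner in that complex, fell 1.33-fold, and UVRAG and ATG14, subunits of the lipid kinase that makes PI3P, fell 1.38-fold and 1.26-fold. The number of falls was 6 without G2 or G3, and also with both forms as 1 group. Among 37 lysosome, proton pump and Ragulator genes 2 (LAMTOR3 and TMEM106B) rose and 10 fell, or 6 without A2 and 2 with both forms as 1 group. CTSD and the pump subunit gene ATP6V1B2 fell 1.97-fold and 1.39-fold.

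Hypoxia and glycolysis genes were lower where they moved, with 10 of 32 falling and 0 rising in limma's test (15 and 0 at an unadjusted p under 0.05). The list median was -0.12 (0.07 with A and -0.22 with G). ENO2, an enolase, was even, at 1138.0, 1151.5 and 1058.2 in the control and 714.6 to 791.5 with both forms (1.46-fold lower). The glucose transporter gene SLC2A3 fell 1.39-fold and the phosphofructokinase gene PFKL 1.3-fold. The falls numbered 4 with both forms as 1 group. Of 28 interferon-stimulated genes 8 fell and 2 (IFI44L and IFI44) rose, with 5 falls without G1 or C3. Treating both forms as 1 group left 3 falls and 0 rises. IFIT3, an antiviral RNA-binding protein, was 156.8, 187.1 and 185.2 in the control and 95.6 to 111.4 with both forms (1.61-fold lower and even). SAMD9 fell 1.32-fold, and IFI44L rose 1.25-fold (0.2 with A and 0.44 with G). The rises numbered 1 without any array other than A1, G3 and C1.

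Of 27 integrin and focal adhesion genes 6 fell and 2 (PARVA and PXN) rose, 7 of them unevenly. VCL, which links integrins to actin, fell 1.75-fold (652.0 to 1011.0 against 1396.8 to 1488.5), ITGB3, an integrin chain, fell 2.09-fold, and ITGA5, another, 1.93-fold. The list median was 0.05 with A and -0.19 with G. With both forms as 1 group 2 fell and 1 rose. The rises numbered 0 without C3 and 1 without any of A1, A2, G1, G2 and G3. Of 30 genes of the matrix and TGF-beta response, 9 rose and 5 fell, or 4 and 2 with both forms as 1 group. LOXL2, which cross-links collagen, rose 1.63-fold on its brightest probe set, while the others gave -0.20 to 0.15. Among 26 cadherin, catenin and nectin genes 3 rose and 1 (CTNNA1) fell, or 2 fell without G1 or C3 and 0 with both forms as 1 group. CDH2, N-cadherin, rose 3.41-fold and evenly (323.0 to 380.9 against 82.0 to 103.9) on both of its probe sets. NECTIN3 rose 1.52-fold, and its other probe set gave -0.15. The NECTIN3 call ended with the mean of both (adjusted p = 0.106), the only alternative to end it.

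Stress and growth-signal lists moved in both directions. Of 23 p53 target genes 9 rose and 5 fell, with 2 falls without C3. TIGAR, which restrains glycolysis, was 263.5, 283.9 and 283.5 in the control and 435.0 to 448.5 on the 6 arrays (1.58-fold higher, adjusted p = 1.64e-05). GADD45B, a stress-response gene, rose 1.47-fold, also evenly, whereas TNFRSF10B, a death receptor, was called lower with 0.07 for A and -1.21 for G. Of 27 growth-factor immediate early genes 6 rose and 5 fell (3 without C3). KLF2 and DUSP6 rose 2.07-fold and 1.43-fold, and FOSL1, a subunit of AP-1, fell 1.82-fold. Of 28 genes of the unfolded protein response and of ATF4, 6 rose and 3 fell. XBP1, a transcription factor of that response, rose 1.47-fold and evenly (415.7 to 470.3 against 287.3 to 296.7). ASNS was called 1.25-fold higher, with 0.08 for A and 0.56 for G. SLC7A11 was called 1.54-fold lower, with -1.05 for A and -0.2 for G. Of 28 apoptosis regulators 5 rose and 2 fell, and the rises numbered 2 or 3 without any array other than A1, C1 and C2. BIRC2 rose 1.44-fold, CASP2 fell 1.24-fold and BCL2L1 1.4-fold, where 1 other BCL2L1 probe set passed in the opposite direction. With both forms as 1 group the rises and falls numbered 7 and 2 in the p53 list, 3 and 2 in the immediate early list, 3 and 0 in the unfolded protein list, and 2 and 2 in the apoptosis list.

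In the list of microRNA processing and Argonaute genes 3 of 22 rose and 4 fell. TNRC6B, a partner of Argonaute in silencing, was 242.9, 160.8 and 180.6 in the control and 108.8 to 129.6 with both forms (1.49-fold lower, adjusted p = 0.00757), and all 6 other probe sets of the gene also fell. AGO1 fell 1.41-fold and ADAR, an RNA-editing deaminase, 1.3-fold (328.2 to 414.7 against 439.9 to 527.6). ADARB1, a related deaminase, stood at -0.17 ± 0.113 (SE, adjusted p = 0.431). The 3 rises (TNRC6C, AGO2 and DIS3L2) numbered 0 without A1 or A3 and 1 without G1 or G3 or C2. With both forms as 1 group 0 rose and 2 fell.

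Metabolic and organelle lists moved in both directions. Of 21 cholesterol genes 7 rose and 6 fell, with MSMO1, an enzyme of sterol synthesis, 1.29-fold higher, and INSIG1 and SCAP, which hold and escort the sterol sensor, 1.33-fold and 1.32-fold lower. Of 34 glyoxalase, glutathione and oxidative defence genes 3 rose and 6 fell, among them GCLC, which limits glutathione synthesis (1.43-fold lower). Of 22 O-glycosylation genes 4 rose and 4 fell. The chaperone gene C1GALT1C1 rose 1.68-fold evenly beside GALNT1, while GALNT11 fell 1.63-fold. Of 17 ER-shaping genes 3 rose, ATL1 by 1.4-fold, and 1 (RTN4) fell, or 2 fell without C2. Treating both forms as 1 group gave 5 rises and 3 falls of cholesterol genes, 2 and 2 of glutathione genes, 4 and 1 of O-glycosylation genes, and 2 and 0 of ER-shaping genes.

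Of 29 nuclear pore genes 4 rose and 6 fell, with 3 falls without any of the 6 miR-376a* arrays. SEH1L rose 1.74-fold and NUP50 fell 1.7-fold, unevenly. Of 19 clock genes only NR1D2 rose (2 without C1) and 4 fell, the repressor genes NFIL3 and BHLHE40 by 1.6-fold and 1.46-fold. Of 34 RAS and RAP GTPase and regulator genes 5 rose and 6 fell. RAP2B and RAP1B rose 1.67-fold and 1.46-fold, the second evenly, with 3 rises without C3. RAP2A, a published target of miR-376a*A, was not called in the pooled comparison (-0.22 ± 0.074, SE, adjusted p = 0.0877), with -0.64 for A and 0.20 for G. It passed with the dim probe sets left out, with 1 feature per gene, with its probe sets averaged, with the replicate block and without C3, at adjusted p of 0.00833 to 0.0435. Over all alternatives its adjusted p was 0.00833 to 0.69. Treating both forms as 1 group gave 2 rises and 1 fall of nuclear pore genes, 1 and 2 of clock genes, and 4 and 2 of RAS and RAP genes.

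Few markers of the cell line were called. Of 19 glioma and glial genes CSPG4 rose 1.3-fold and CHI3L1 fell 1.18-fold, and the second call ended without any array other than C1 (adjusted p of 0.0508 to 0.112). The rises numbered 2 without G3 and 3 without C1. CSPG4 stood at 0.5 with A and 0.25 with G, and CHI3L1 at -0.05 and -0.42. Neither marker list had a call with both forms as 1 group. Of 19 markers of other cell types SNAP25, PECAM1 and CDH5 rose and SYT1 fell, CDH5 at signals of no more than 7.73. SNAP25 rose 2.34-fold with A and 1.32-fold with G, and PECAM1 and SYT1 had groups that overlapped. The SYT1 call ended without A1 or A2, G1 or G3, or C1 or C3 (adjusted p of 0.0709 to 0.148). All arrays are of the U87 line, so these calls do not show that cells of other types were present. In bulk RNA, a change in the share of cells with a transcript and a change per cell cannot be told apart.

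**Figure D4:**
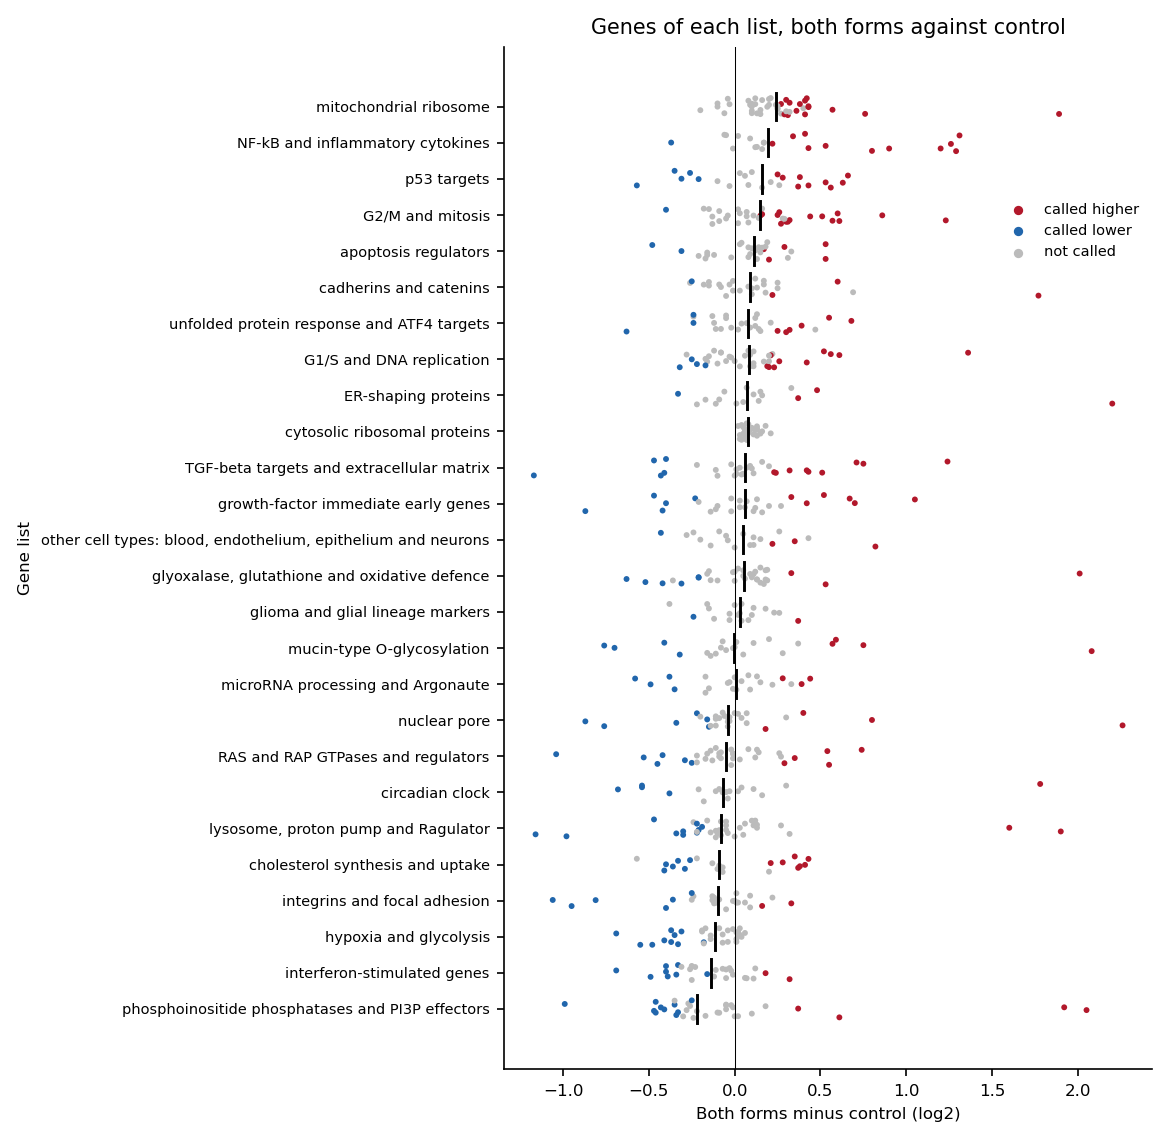
Each point is a gene of the list named at the left, at its log2 difference of both forms from control, coloured by its call, and black bars are list medians. Medians lie between -0.22 and 0.24, and single genes such as NUP37 (2.26) and VMA21 (-1.16) lie far from their lists.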

How the data were processed

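RNA from U87 cells was hybridised to 9 single-colour arrays, 3 in each of 3 groups. The deposited values are signal intensities per probe set on a linear scale, made by the authors with GCOS 1.4.0.036 per the submitters' processing notes. No source used here gives the signal algorithm or its scaling target. Of 54675 probe sets, 62 controls were left out and 54613 tested. An annotation table gave 41091 of them a single gene symbol, 1801 several and 11721 none, and a gene was represented by its brightest probe set. Differences are on the log2(signal + 16) scale, which understates changes of dim genes.

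Group means were fitted with limma 3.58.1 in R 4.3.3 (eBayes with an intensity trend, two-sided, Benjamini-Hochberg adjustment over all probe sets). The contrast was the mean of both forms minus control, with miR-376a*A minus miR-376a*G beside it. The fit had 6 residual degrees of freedom and a median SE of 0.0854, and the number of arrays limits the precision. On simulated data with 200 changed of 54613 probe sets, 68% of 1.5-fold and 92% of 2-fold changes were recovered, and 2.44% of calls were false. The changed probe sets were drawn only from those above a brightness cut, so recovery of dim ones was not measured. The data had many more calls (7157), so the simulated rates need not hold for them. Tables were made with pandas 2.3.3 and numpy 2.4.6 in Python 3.11.15, and plots with matplotlib 3.10.9.

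Named genes were the 10 largest even rises and falls (by the smaller of both forms' differences, signal at or above the 40th percentile, groups not overlapping), the 5 largest uneven rises and falls, up to 3 called genes of smallest p from each of 26 gene lists, and RAP2A, ADAR and ADARB1. The members and lists were chosen with earlier results of these data known. Deviations of same-numbered arrays correlated between -0.103 and 0.063, so replicate numbers were not treated as pairs. Alternatives covered scaling, filter, offset, variance model, array weights, design, probe sets per gene, replicate block and each array left out.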

Additional observations from a re-analysis of the deposited data

Results flagged for a closer look

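Among the 6 miR-376a* arrays, the end value of 2 named genes lay far from its neighbour. The gap was 0.79 of the range for TIGAR, where miR-376a*G replicate 1 was lowest (435.0), and 0.661 for MRPS35, where miR-376a*G replicate 1 was highest (775.5). The cut used for flagging is one that chance passes in about 1 in 20 groups. Many named genes were screened, so a few flags arise by chance.

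In 38 named genes the forms differed from each other at an adjusted p under 0.05 in limma's test, given here as miR-376a*A minus miR-376a*G (log2). Of the growth and adhesion genes, the difference was -1.3 for CCN2, 1.17 for IL11, 0.78 for CEMIP, -0.88 for TWSG1, 1.33 for GAP43, 0.51 for VCL, 1.01 for ITGB3 and 0.54 for ITGA5. Of the transcription and stress genes it was -0.57 for KLF2, 0.61 for FOSL1, 0.54 for NFIL3, 0.34 for BHLHE40, 1.28 for TNFRSF10B, -0.4 for BIRC2, -0.24 for IFI44L and -0.48 for ASNS. Of the membrane and organelle genes it was -0.98 for TMEM106B, -1.96 for VMA21, -0.66 for RTN4, 1.08 for AP3M1, -0.7 for STX3, -0.94 for NUP50, -0.41 for SEH1L and -0.35 for MRPL1. Of the metabolic genes it was -1.95 for ELOVL5, -0.86 for SLC7A11, -0.52 for GALNT11 and 0.25 for PFKL. Of the GTPase genes it was -2.54 for RRAS2, -0.28 for RAP2B and -0.84 for RAP2A. For the rest it was -0.56 for KLHL8, -0.29 for RFC5, 0.4 for AGO1, 0.36 for CHI3L1, 0.82 for SNAP25, 0.73 for PECAM1 and 0.94 for SYT1.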

How the results depend on the processing

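No result reversed. With both forms as 1 group of 6 arrays, 3153 probe sets passed and 108 list calls were made. The mean of a gene's probe sets gave 3895 features called, 61 at least 2-fold, 2945 between forms and 330 even, and 1 feature per gene gave 112 at least 2-fold and 352 even; both test fewer features. An offset of 1 gave 786 and an offset of 64 gave 73 probe sets at least 2-fold, since the offset sets the fold of dim probe sets. Array weights gave 7655 between forms, where the cause was not tested. A band of 0.25 times the pooled difference left 73 even and a band of 1 times it 3575. Leaving out 1 array gave 5373 to 6988 called, 179 to 202 at least 2-fold, 2859 to 6991 between forms, 397 to 946 even and 188 to 240 list calls. The replicate block gave 5949 called, 176 at least 2-fold, 3921 between forms, 550 even and 211 list calls. Among named genes it ended the calls of CHI3L1 (adjusted p = 0.0813) and SYT1 (0.0598) and added RAP2A (0.0435). Quantile normalization ended CHI3L1 (0.114) and SYT1 (0.0526), and the mean of probe sets ended ASNS (0.0793), NECTIN3 (0.106), CHI3L1 (0.061) and PECAM1 (0.437). In the dimmest of 5 bins of signal 0.897% were called, where the cause was not tested.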
